A study of Mus musculus with 3 samples.

Results

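The miR-15/16 family, taken with miR-322 and miR-503, was described as 8 mature miRNAs of the 1881 mouse miRNAs on the array. The members were chosen by name: mmu-miR-15a-5p, mmu-miR-15b-5p, mmu-miR-16-5p, mmu-miR-195a-5p, mmu-miR-497a-5p, mmu-miR-322-5p, mmu-miR-322-3p and mmu-miR-503-5p (the mouse prefix mmu is dropped below). Exosomes, the small membrane vesicles that cells shed, were isolated from the medium of cultured mouse MSCs, mesenchymal stem cells grown out of bone marrow as its plastic-adherent fraction. There were 3 culture conditions, held for 24 h and measured with 1 array each: hypoxia with GW4869 (H+G-Exo), hypoxia alone (H-Exo) and normoxia (N-Exo). GW4869 is an inhibitor of neutral sphingomyelinase that lowers exosome release. In all 3 groups the MSCs came from the marrow of male wild type C57BL/6 mice aged 4 to 6 weeks and were used at passages 3 to 6. H+G-Exo and H-Exo thus share the hypoxia, and no normoxic culture with GW4869 is among the groups. The design text speaks of 3 samples per kind of exosome, and the sources used here do not state whether their RNA was pooled. With 1 array per group no test across samples was possible, so no difference given here has a replicate check.

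The arrays were 1-colour Agilent miRNA arrays, on which each probe is printed as many spots. Detection of a probe required over 50% of its spots to be well above background by the scanner software. By that rule the H+G-Exo, H-Exo and N-Exo arrays detected 675, 586 and 685 miRNAs. The H-Exo array was dimmer than the others. The 75th percentile of the signal, over the probes detected on all 3 arrays, was 468.9 for H+G-Exo, 235.0 for H-Exo and 417.3 for N-Exo, and each array's signals were divided by it to give the scaled signals used here. The labelling control dmr_285 was also lowest in H-Exo, with median signals of 1995, 1356 and 2316, but dmr_31a differed less, at 1627, 1530 and 1744, and the hybridization control dmr_3 gave 22014, 20410 and 19953. The values with no scaling are therefore given beside each comparison. Of 10 marker miRNAs of mesenchymal cells and fibroblasts, 10, 9 and 10 were detected in H+G-Exo, H-Exo and N-Exo. Of 7 blood cell markers, 3, 2 and 2 were detected. None of the 2 endothelial and none of the 5 epithelial markers was detected on any array. Of 3 liver (serum) markers 0, 0 and 2 were detected, with summed scaled signals of 0.0475, 0.0965 and 0.154, of 3 neuronal markers 0, 0 and 1 (0.0382, 0.0682 and 0.0993), and of 4 muscle and heart markers 2, 1 and 2 (0.119, 0.157 and 0.161). With the liver and neuronal markers undetected on both hypoxic arrays, those sums are of signals near background. The muscle and heart sums of H-Exo and N-Exo were nearly equal. Within these limits, the low scaled sums of the 3 lists ran in the same order of arrays as the family. The sums of the blood cell markers (0.180, 0.363 and 0.287) did not. Nor did those of the endothelial (0.0452, 0.0287 and 0.0196) and epithelial markers (0.0172, 0.0146 and 0.0179). The part of such signals in the family's values was not tested.

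A miRNA pairs with messenger RNAs mainly through its seed, bases 2 to 8 from the 5′ end, and lowers their translation and stability. Members of the miR-15/16 family are best known as brakes on cell division and survival. They repress cyclins, the cell cycle kinases CDK6 and WEE1, and the anti-apoptotic protein BCL2. In humans the miR-15a/16-1 locus is often deleted in chronic lymphocytic leukaemia. The amount of a miRNA in exosomes need not follow its amount in the cell, since some miRNAs are exported selectively.

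The mature sequences are printed first because they carry the feature that joins the family. They are given 5′ to 3′ from RefSeq for the mouse GRCm38.p6 build, with the seed in capitals.
miR-15a-5p: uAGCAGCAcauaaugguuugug
miR-15b-5p: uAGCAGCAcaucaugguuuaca
miR-16-5p: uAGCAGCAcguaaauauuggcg
miR-195a-5p: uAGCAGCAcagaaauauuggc
miR-497a-5p: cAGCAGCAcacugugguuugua
miR-322-5p: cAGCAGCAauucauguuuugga
miR-503-5p: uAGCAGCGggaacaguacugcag
miR-322-3p: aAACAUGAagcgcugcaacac
The upper 6 share the seed AGCAGCA. The seed of miR-503-5p, AGCAGCG, differs in its last base. miR-322-3p comes from the opposite arm of the miR-322 hairpin and has the unrelated seed AACAUGA. Outside the seed some members are near copies of each other. miR-16-5p and miR-195a-5p were identical at 19 of 21 bases counted from the first, and miR-15a-5p and miR-15b-5p at 18 of 22.

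The hairpins lie at 4 genomic places, each annotated by RefSeq as miRNA genes. On the minus strand of chromosome X, miR-322-5p spans chrX:53054306-53054327, miR-322-3p chrX:53054269-53054289 and miR-503-5p chrX:53054027-53054049, and 200 bases separate the miR-322 and miR-503 hairpins. On the plus strand of chromosome 11, miR-497a-5p spans chr11:70234730-70234751 and miR-195a-5p chr11:70235062-70235082, with 241 bases between their hairpins. miR-15b-5p spans chr3:69009775-69009796 on the plus strand, and 66 bases separate its hairpin from that of miR-16-2. miR-15a-5p spans chr14:61632075-61632096 on the minus strand, 117 bases from the mature sequence of the miR-16-1 hairpin. miR-16-5p is made from both miR-16 hairpins, at chr3:69009918-69009939 and chr14:61631936-61631957, and the array cannot tell which of them gave the signal.

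The hairpins on chromosomes X and 11 are printed because of the pair of members at each place. In the main setting described below, each pair differed by nearly the same amount between H-Exo and N-Exo. Capitals mark the mature arms, the 5p arm first.
Mir322: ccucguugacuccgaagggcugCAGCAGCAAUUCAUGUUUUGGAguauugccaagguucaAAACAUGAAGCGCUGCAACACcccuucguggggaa
Mir503: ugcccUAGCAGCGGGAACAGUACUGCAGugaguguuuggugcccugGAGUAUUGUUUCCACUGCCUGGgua
Mir195a: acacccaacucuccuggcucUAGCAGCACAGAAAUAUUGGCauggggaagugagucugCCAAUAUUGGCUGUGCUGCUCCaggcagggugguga
Mir497: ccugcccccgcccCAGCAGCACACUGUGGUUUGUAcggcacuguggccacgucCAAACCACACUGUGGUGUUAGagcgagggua

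The probes decide which of the near copies the array can separate. The brightest probe of 4 members is printed 5′ to 3′, with capitals where it pairs with the seed.
miR-16-5p probe: cgccaatatttacgTGCT
miR-195a-5p probe: gccaatatttctgTGCTGC
miR-322-5p probe: tccaaaacatgaatTGCTGCTg
miR-503-5p probe: ctgcagtactgttccC
All 18 member probes matched their own miRNA exactly. The miR-195a-5p probe was mismatched to miR-16-5p at only 2 bases, the closest pair among the members, so its signal is uncertain where miR-16-5p is bright. The miR-15a-5p and miR-15b-5p probes were mismatched to each other's miRNA at 4 bases, as the miR-497a-5p probe was to miR-15a-5p. The miR-16-5p probe in turn was mismatched to miR-195a-5p at 2 bases and ran 1 base past its end. By sequence alone these members are thus not well separated in either direction. In H+G-Exo the unscaled signal was 746 for the miR-16-5p probe and 23.2 for the miR-195a-5p probe. How far either probe takes up the other miRNA was not tested. The miR-322-5p probe had 6 mismatches to the nearest other 5p member. The miR-503-5p probe, which covers 1 base of the seed, left at least 8 of its bases unpaired with any other.

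The H+G-Exo array detected 6 of the 8 members, the H-Exo array 7 and the N-Exo array all 8. The 6 members measured on all 3 arrays had their lowest scaled signal in H+G-Exo, an intermediate one in H-Exo and their highest in N-Exo. The spread given with each signal below is the SD over the spots of the brightest probe, which is technical error within 1 array.

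**Figure D1:**
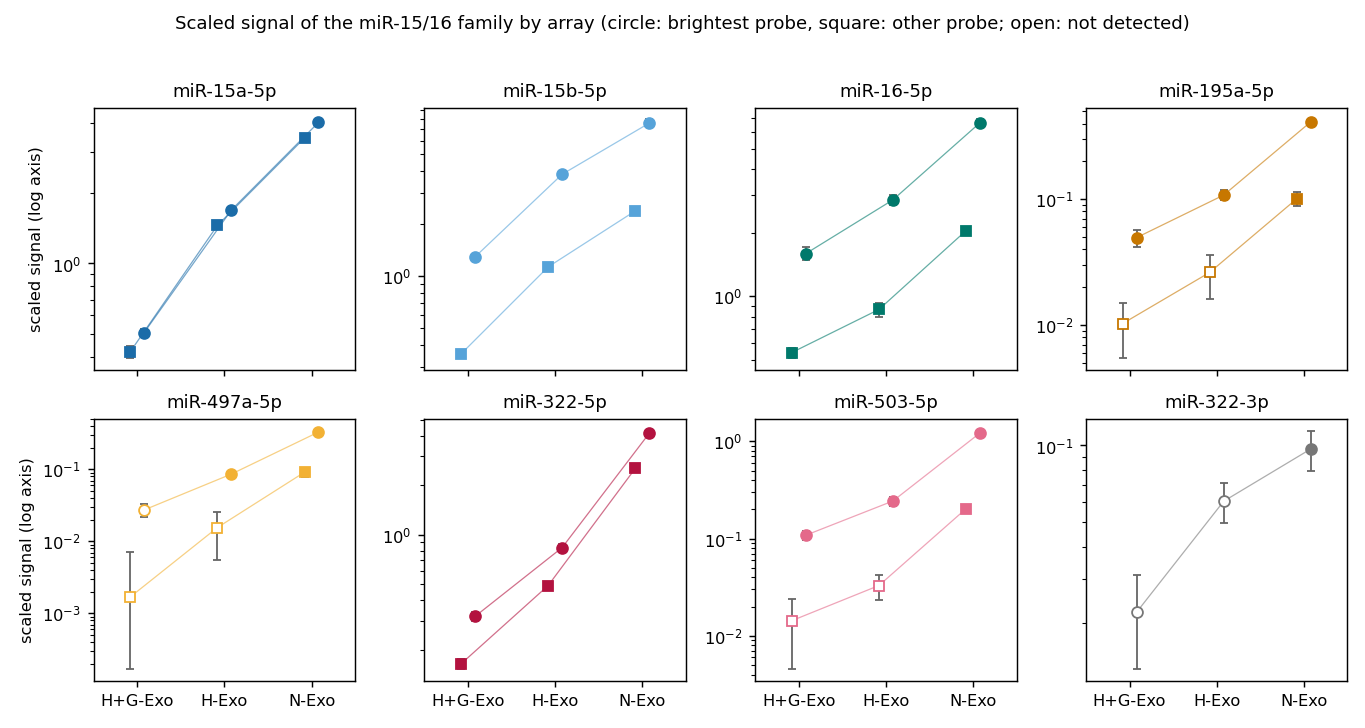
Scaled signal of each family member (processed signal divided by the array's 75th percentile, log axis) in H+G-Exo, H-Exo and N-Exo, 1 array each. Circles are the brightest probe, squares the other probe (the shorter probes of miR-322-3p are left out), open symbols are not detected, and bars are the SD over spots, with a lower end that would fall near or below 0 cut short. Every probe drawn was lowest in H+G-Exo and highest in N-Exo, as for miR-322-5p at 0.318, 0.835 and 4.15.

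miR-322 is the mouse counterpart of human miR-424. With miR-503 it is known in mouse myoblasts for repressing the cell cycle phosphatase Cdc25A, and human miR-424 is known as a miRNA that hypoxia raises in endothelial cells. miR-322-5p had scaled signals of 0.318 ± 0.0197 in H+G-Exo, 0.835 ± 0.0402 in H-Exo and 4.15 ± 0.154 in N-Exo (SD over 15, 15 and 14 spots). The spots of the arrays did not overlap, and the unscaled signals were 149, 196 and 1731 in the same order of groups. miR-503-5p had scaled signals of 0.108 ± 0.0104, 0.243 ± 0.0270 and 1.22 ± 0.0671 in H+G-Exo, H-Exo and N-Exo (15 spots each), from unscaled signals of 50.7, 57.1 and 509. Both members of the pair were thus low on both hypoxic arrays and bright in N-Exo. Before scaling, the miR-503-5p spots of the hypoxic arrays overlapped, at 39.0 to 56.8 in H+G-Exo and 48.5 to 68.4 in H-Exo. The other arm, miR-322-3p, had scaled means of 0.0221 in H+G-Exo and 0.0604 in H-Exo, where 0 of 7 spots were above background, against 0.0969 ± 0.0174 in N-Exo, where 7 of 7 were.

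miR-195a and miR-497a are known in mice for restraining the cell cycle, miR-195 in heart muscle cells after birth and both in quiescent muscle stem cells. On the hypoxic arrays both lay near background. miR-195a-5p had scaled signals of 0.0495 ± 0.00749 in H+G-Exo, 0.108 ± 0.00974 in H-Exo and 0.413 ± 0.0179 in N-Exo (15 spots each), from unscaled signals of 23.2, 25.4 and 172. In H+G-Exo 12 of 15 spots were above background, and in H-Exo all 15, and their unscaled ranges of 16.5 to 29.7 and 21.8 to 29.2 overlapped. miR-497a-5p was not detected in H+G-Exo, where 0 of 14 spots passed and the scaled mean was 0.0274, and had 0.0861 ± 0.00877 in H-Exo and 0.330 ± 0.0154 in N-Exo (14 spots each). In H-Exo 12 of its 14 spots passed, so it lay near the limit of detection there.

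miR-15a, miR-15b and miR-16, the founding members, gave signals well above background on every array. miR-15a-5p had scaled signals of 0.507 ± 0.0195 in H+G-Exo, 1.69 ± 0.0566 in H-Exo and 4.01 ± 0.118 in N-Exo (SD over 15, 14 and 15 spots), from unscaled signals of 238, 398 and 1674. miR-15b-5p had 1.29 ± 0.0445, 3.84 ± 0.166 and 7.56 ± 0.370 in H+G-Exo, H-Exo and N-Exo (15 spots each), from unscaled signals of 603, 902 and 3156. For both, the spots of the 3 arrays stayed apart with or without scaling. miR-16-5p had 1.59 ± 0.111, 2.86 ± 0.145 and 6.63 ± 0.235 (SD over 15, 15 and 14 spots). Before scaling its order was different, at 746 in H+G-Exo, 671 in H-Exo and 2765 in N-Exo, so the 2 hypoxic arrays changed places, with overlapping spots at 619 to 816 and 607 to 716.

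H-Exo set against N-Exo, called the hypoxia comparison here, asks how hypoxia was associated with the exosomal content of the family. A miRNA was called lower or higher, written here as fell or rose, where both arrays detected it and its scaled signals differed at least 2-fold and by over 2 standard errors (SE) over spots. Of the 7 members measured on both arrays, 6 fell and 0 rose in H-Exo. Of all 582 miRNAs measured on both arrays, 10.7% were called lower and 4.3% higher. The higher calls were 28.7% of all calls in this setting, and between 0.730% and 38.5% under the other scalings and centrings tried. The median log2 difference was -1.94 over the members and 0.34 over all 582 miRNAs. Over the 285 miRNAs numbered below 3000, which were described earlier, 21.8% were called lower and 3.16% higher, and the median was 0.10.

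The chromosome X pair had the lowest differences of all 582 miRNAs. miR-503-5p fell 5.01-fold in H-Exo (log2 difference -2.33, SE 0.05), the lowest of all, and miR-322-5p fell 4.97-fold (-2.31, SE 0.02), the next. The chromosome 11 pair followed at places 9 and 10 from the lowest, with falls of 3.83-fold for miR-497a-5p and for miR-195a-5p (-1.94, SE 0.04 each). Both calls depended on the background handling: the log2 differences of miR-195a-5p and miR-497a-5p were -1.32 and -1.24 with normexp background, and -0.68 and -0.55, no longer called, with normexp and an offset of 50. miR-15a-5p fell 2.37-fold (-1.24, SE 0.02), at place 40, and miR-16-5p 2.32-fold (-1.21, SE 0.02), at place 44. miR-15b-5p was 1.97-fold lower (-0.98, SE 0.02) and so was just within the 2-fold limit, though its other probe gave 2.10-fold. Against the lowest detected signal of the H-Exo array, miR-322-3p was lower there by at least 1.48-fold. With no scaling the 7 measured members were 3.50-fold (miR-15b-5p) to 8.90-fold (miR-503-5p) lower in H-Exo, and all 7 were called. More of all 582 miRNAs were called lower there as well, 23.0% against 10.7% with scaling. Their median log2 difference was -0.49 with no scaling, against 0.34 with it. By the software's own total per miRNA, in contrast, miR-195a-5p (1.38), miR-497a-5p (3.95) and miR-503-5p (0.10) had log2 differences above 0, and for these 3 the listed totals in H+G-Exo and H-Exo exceeded the sum over the miRNA's own probes. An exosome preparation with fewer vesicles and one with less RNA per vesicle cannot be told apart on these arrays.

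**Figure D2:**
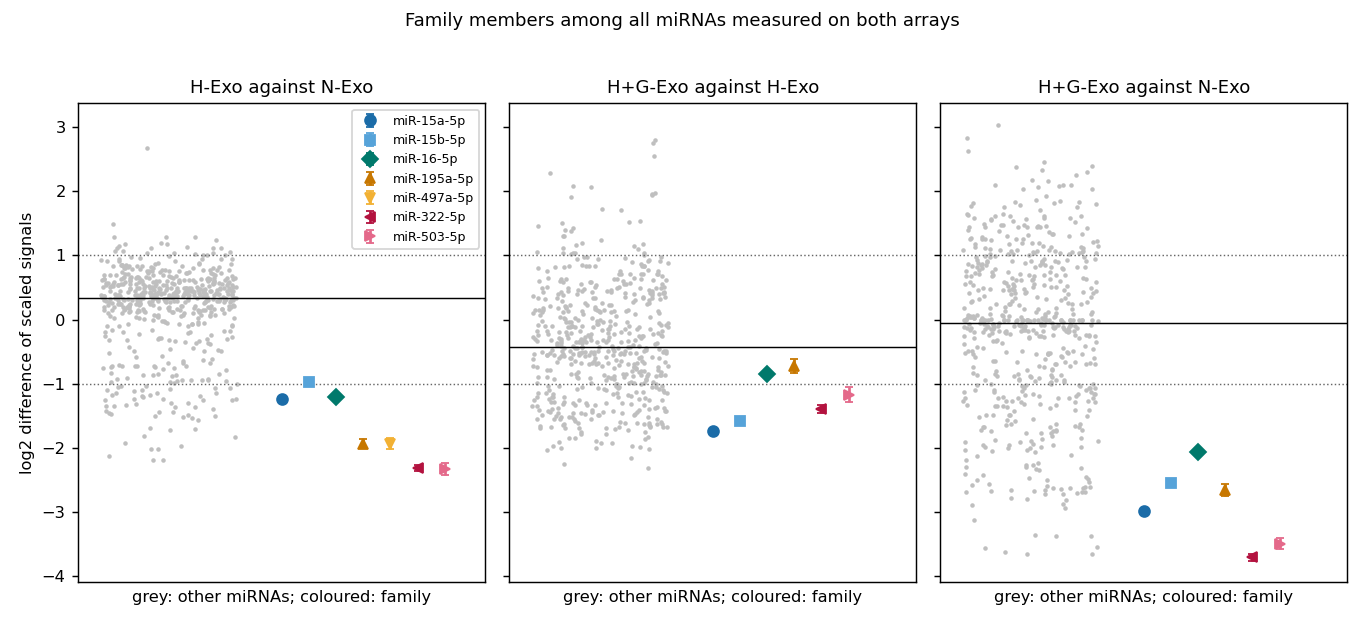
Log2 difference of scaled signals for the family (coloured, bars of 2 SE over spots) beside the other miRNAs measured on both arrays (grey), for the 3 comparisons. The solid line is the median of all miRNAs and dotted lines mark 2-fold. In H-Exo against N-Exo miR-503-5p and miR-322-5p lie at -2.33 and -2.31, at the bottom of the 582 miRNAs.

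Differences between 2 members on the same pair of arrays do not depend on a common scaling factor. In the hypoxia comparison the log2 differences of miR-322-5p and miR-503-5p were 0.01 apart (SE 0.05), those of miR-195a-5p and miR-497a-5p less than 0.01 apart (SE 0.06), and those of miR-15a-5p and miR-16-5p 0.03 apart (SE 0.03). None of these 3 gaps passed 2 SE over spots. The remaining pair with neighbouring hairpins did: miR-15b-5p minus miR-16-5p was 0.24 (SE 0.03), close in size to miR-15a-5p minus miR-15b-5p, which lie at different places (-0.27, SE 0.03). Other gaps between places were larger. The difference of miR-322-5p minus that of miR-15a-5p was -1.07 (SE 0.03), and minus that of miR-195a-5p it was -0.38 (SE 0.04). For miR-195a-5p minus miR-16-5p, the miRNA nearest to its probe, the value was -0.72 (SE 0.04). The likeness within pairs did depend on other processing choices. With normexp background and an offset of 50, miR-322-5p and miR-503-5p stood at -2.07 and -1.51. Relative to miRNAs with a like share of G and C in the probe, they stood at -1.47 and -2.68. On that scale miR-195a-5p and miR-497a-5p stood at -1.75 and -2.06, and miR-15a-5p and miR-16-5p at -0.40 and -0.49.

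Probe composition moved with these differences. Across the 582 miRNAs the Spearman correlation of the H-Exo to N-Exo log2 difference with the probe's share of G and C was 0.44, a description across miRNAs that share arrays. The brightest probes of the members had 40.9% to 56.2% GC, against a median of 60% over all. Among the 69 miRNAs within 5 percentage points of the GC share of the miR-15a-5p and miR-322-5p probes, the median log2 difference was -0.84 and 37.7% were called lower. Relative to that median miR-322-5p stood at -1.47 and was the lowest of the 69, whereas miR-15a-5p stood at -0.40, with 19 of the 69 at or below it. miR-16-5p stood at -0.49 relative to the median of 88 miRNAs of like GC, and miR-15b-5p at -0.68 relative to 129. The gap was largest for miR-503-5p, at -2.68 relative to 175 miRNAs of like GC, of which 8% were called lower. miR-497a-5p stood at -2.06 and miR-195a-5p at -1.75 relative to theirs. Relative to miRNAs of like GC, 4 of the 7 members thus stayed past 2-fold: miR-195a-5p, miR-497a-5p, miR-322-5p and miR-503-5p. Of all 582 miRNAs, 8.25% were called lower on that scale. The part of probe composition in the members' values was not tested further.

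**Figure D3:**
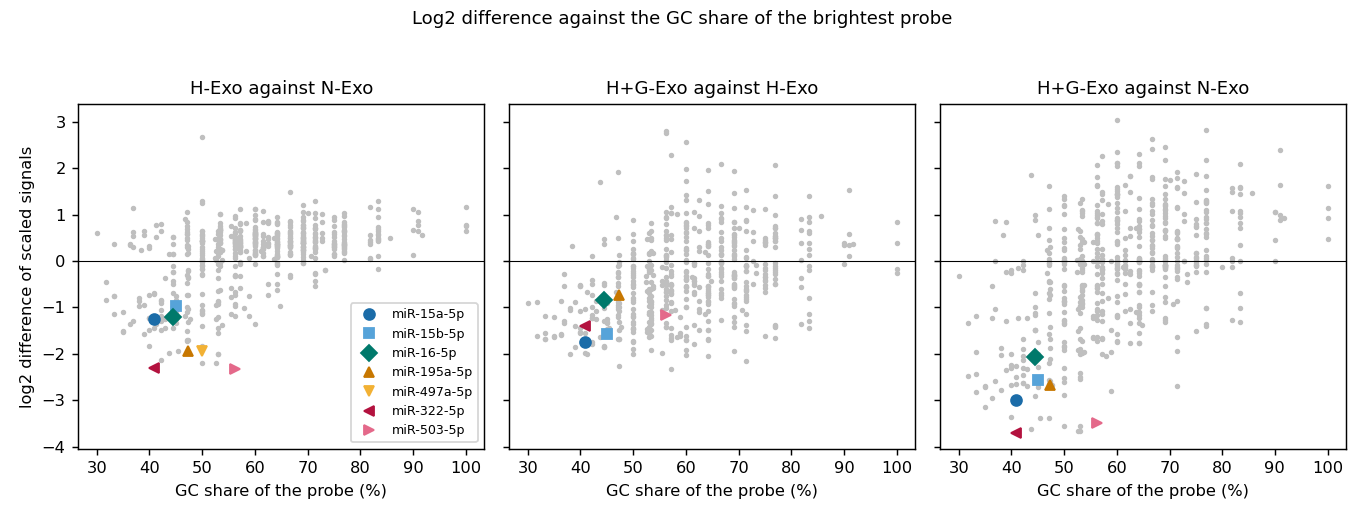
Log2 difference of scaled signals against the percentage of G and C in the brightest probe, for the 3 comparisons, with other miRNAs in grey and the family coloured. In H-Exo against N-Exo the low-GC probes lie lower as a whole, miR-15a-5p at -1.24 sits among them, and miR-503-5p at 56.2% GC and -2.33 sits apart.

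H+G-Exo set against H-Exo, the GW4869 comparison, asks how GW4869 was associated with the family under hypoxia. It shares the H-Exo array with the hypoxia comparison. Of 6 members measured on both arrays, 4 fell and 0 rose in H+G-Exo. Of all 566 miRNAs measured, 26.1% were called lower and 6.18% higher. Higher calls were 19.1% of all calls here and up to 96.4% with no scaling. The median log2 difference was -1.28 over the members, -0.42 over all 566 miRNAs and -0.73 over the 274 numbered below 3000, of which 39.1% were called lower and 4.74% higher. miR-15a-5p fell 3.34-fold in H+G-Exo (-1.74, SE 0.02), miR-15b-5p 2.99-fold (-1.58, SE 0.02), miR-322-5p 2.63-fold (-1.39, SE 0.03) and miR-503-5p 2.25-fold (-1.17, SE 0.05). miR-16-5p was 1.80-fold lower (-0.85, SE 0.03), within the 2-fold limit. miR-195a-5p was below the floor of 0.0653 in H+G-Exo, with a difference of -0.73 against that floor and -1.12 against its own signal. For miR-497a-5p, undetected in H+G-Exo, the signal was lower by at least 2.29-fold against the lowest detected signal of that array (0.0376), by at least 1.32-fold against the floor of 0.0653 and by at least 1.15-fold with no scaling. Neither array detected miR-322-3p.

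These 4 calls rested on the scaling. With no scaling 0 of the 6 members passed 2-fold: the log2 difference was -0.74 for miR-15a-5p, -0.58 for miR-15b-5p, -0.40 for miR-322-5p, -0.17 for miR-503-5p, -0.13 for miR-195a-5p and 0.15 for miR-16-5p. In that setting 7 of all 567 miRNAs (1.23%) were called lower and 185 higher. The median was -0.28 over the members and 0.57 over all miRNAs. Relative to miRNAs of like GC 0 of 6 members passed as well, and 9.01% of all miRNAs were called lower. With normexp background and an offset of 50, miR-503-5p was no longer called (-0.57). What did not depend on a common factor was the split within the family. The log2 difference of miR-15a-5p minus that of miR-16-5p was -0.89 (SE 0.04), and that of miR-15b-5p minus miR-16-5p was -0.73 (SE 0.04), although these members come from the same 2 places. miR-322-5p minus miR-15a-5p gave 0.35 (SE 0.04), the opposite order to that in the hypoxia comparison, and miR-322-5p minus miR-503-5p gave -0.22 (SE 0.06). These SE cover spots and not differences between probes. The 2 probes of miR-322-5p were themselves 0.19 apart here, at -1.39 and -1.58, nearly as far as the gap to miR-503-5p.

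**Figure D4:**
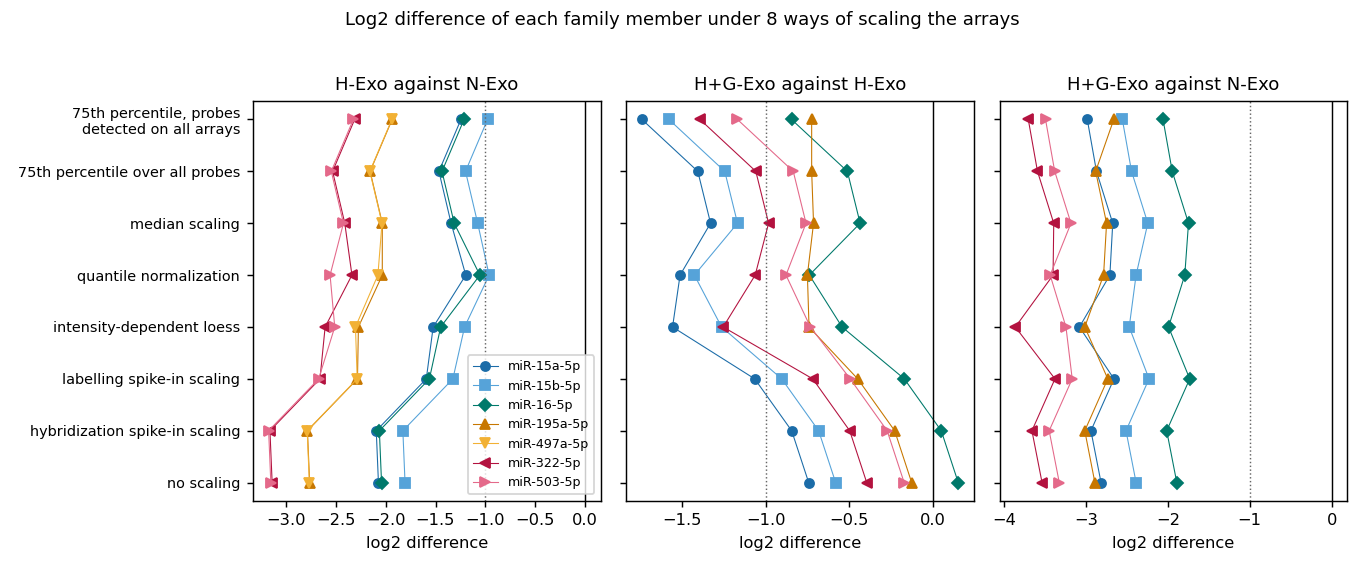
Log2 difference of each family member (symbols joined by lines) under 8 ways of scaling the arrays, for the 3 comparisons. The dotted line marks 2-fold lower and the solid line 0, and a member not detected on both arrays is not drawn. In both comparisons with N-Exo all values lie below 0, whereas between H+G-Exo and H-Exo miR-15a-5p lies between -1.74 and -0.74 and miR-16-5p reaches 0.15 with no scaling.

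In the combined comparison, H+G-Exo and N-Exo differed in both hypoxia and GW4869, which cannot be told apart, and it shares an array with each of the others. All 6 members measured on both arrays fell in H+G-Exo and 0 rose, and of all 606 miRNAs 26.1% were called lower and 18.3% higher. Higher calls were 41.3% of all calls here and up to 70.9% under the other scalings and centrings. The median was -2.82 over the members, -0.05 over all 606 miRNAs and -0.70 over the 295 numbered below 3000, of which 44.1% were called lower and 11.9% higher. miR-322-5p fell 13.0-fold (-3.71, SE 0.03), the lowest difference of the 606, and miR-503-5p 11.3-fold (-3.49, SE 0.04), at place 7. miR-15a-5p fell 7.91-fold, miR-195a-5p 6.32-fold against the floor, miR-15b-5p 5.88-fold and miR-16-5p 4.17-fold. Against the array's own limit of 0.0376, the members undetected in H+G-Exo were lower by at least 8.78-fold (miR-497a-5p) and 2.58-fold (miR-322-3p). Against the floor used for miR-195a-5p these bounds were 5.06-fold and 1.48-fold. With normexp background and an offset of 50, miR-195a-5p was no longer called (-0.85). With no scaling the measured members were 3.71-fold (miR-16-5p) to 11.6-fold (miR-322-5p) lower, and all 6 were called. In that setting 141 of all 607 miRNAs (23.2%) were called lower and 141 higher. Relative to miRNAs of like GC, miR-16-5p stood at -0.38 and miR-15a-5p at -0.98, both within 2-fold, and the other 4 were past it. Of all miRNAs, 17.8% were called lower on that scale.

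The probes of a member gave like answers. Both probes of miR-15a-5p, miR-15b-5p, miR-16-5p and miR-322-5p were detected on every array. The shorter probe of each is the longer one without its last base. Both thus read nearly the same sequence on the same array, and their likeness is no independent check. In all 3 comparisons the pair of probes had the same sign for 4 of 4 members, and their log2 differences were 0.00 to 0.09 apart in the hypoxia comparison, 0.05 to 0.19 apart in the GW4869 comparison and 0.05 to 0.25 apart in the combined one. The shorter probes of miR-195a-5p, miR-497a-5p and miR-503-5p were detected only in N-Exo. By these probes H-Exo was lower than N-Exo by at least 1.55-fold, 1.40-fold and 3.11-fold, in that order of miRNAs.

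Other products of the same hairpins were not detected. All 7 other arms on the array, miR-15a-3p, miR-15b-3p, miR-16-1-3p, miR-16-2-3p, miR-195a-3p, miR-497a-3p and miR-503-3p, were detected on no array, with unscaled signals between -4.43 and 8.32. The same held for miR-195b and miR-497b, and for all 4 miRNAs outside the family that have the seed of a member, miR-195b among them. miR-195b has the full family seed and matches miR-16-5p at 16 of 22 bases, and its probe, with 6 mismatches to miR-16-5p, had unscaled signals of -1.30 to 0.21 over the 3 arrays.

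Next to miR-322 and miR-503 on chromosome X lie miR-351, miR-542, miR-450a and miR-450b. Of their 9 mature products on the array, the arrays detected 3 for H+G-Exo, 2 for H-Exo and 6 for N-Exo. miR-351-5p, a relative of miR-125, had unscaled signals of 7.50, 9.01 and 50.7 in H+G-Exo, H-Exo and N-Exo, was detected only in N-Exo and was lower in H-Exo by at least 1.86-fold. miR-542-3p followed the same pattern at 3.10, 3.42 and 34.4, lower in H-Exo by at least 1.26-fold. miR-450b-3p, at 2.79, 2.89 and 20.4, was also detected only in N-Exo, too near the detection limit for a bound in H-Exo. Not all neighbours did so. miR-450a-2-3p had unscaled signals of 45.1, 17.0 and 24.6, was not detected in H-Exo and was highest in H+G-Exo. In scaled signal it was at least 1.33-fold higher in the GW4869 comparison. In the combined one it was 1.47-fold higher against the floor of 0.0653, within the 2-fold limit. Its scaled signals there were 0.0963 in H+G-Exo and 0.0590 in N-Exo, the last below the floor. miR-542-5p was measured on all 3 arrays at unscaled signals of 78.1, 42.1 and 143, and in scaled signal was 1.92-fold lower in H-Exo (-0.94 against N-Exo, SE 0.17), within the limit. In the combined comparison it was called lower, at 2.06-fold (-1.04, SE 0.13). There miR-351-5p, miR-542-3p and miR-450b-3p were lower by at least 3.23-fold, 2.19-fold and 1.30-fold against the lowest detected signal of the H+G-Exo array. miR-351-3p had a log2 difference of 0.37 (SE 0.12) in the hypoxia comparison, close to the median of all miRNAs, and of 0.18 (SE 0.12) in the combined one.

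miR-103-3p and miR-107-3p, relatives whose seed is shifted by a base against that of miR-15/16, fell in all 3 comparisons. miR-103-3p had scaled signals of 0.555 ± 0.0581, 2.01 ± 0.0783 and 4.13 ± 0.254 in H+G-Exo, H-Exo and N-Exo, a fall of 2.06-fold in the hypoxia comparison and of 3.62-fold in the GW4869 comparison. miR-107-3p fell 2.13-fold and 2.88-fold in these comparisons. With no scaling neither passed 2-fold in the GW4869 comparison, where miR-103-3p was 1.81-fold lower (260 in H+G-Exo and 472 in H-Exo) and miR-107-3p 1.44-fold lower (152 and 220).

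The family's pattern was shared by miRNAs outside it. Among 556 miRNAs measured on all 3 arrays, the nearest to the median pair of differences of the 6 such members (-1.59 in the hypoxia and -1.28 in the GW4869 comparison) were miR-26b-5p, miR-140-5p, miR-30b-5p, miR-196b-5p and miR-361-5p, at Euclidean distances of 0.12 to 0.24 on the log2 scale. The 6 members themselves lay 0.57 to 0.74 from that point. miR-26b-5p had scaled signals of 0.0807, 0.185 and 0.523 in H+G-Exo, H-Exo and N-Exo, and miR-140-5p, a miRNA of cartilage cells, 0.203, 0.483 and 1.31. Likeness over 3 arrays is a description and rests on the same scaling. The mesenchymal markers moved in the same direction. Their summed scaled signal was 50.7 in H+G-Exo, 126.6 in H-Exo and 289.4 in N-Exo, and 6 of 9 fell in the hypoxia comparison, 4 of 9 in the GW4869 comparison and 10 of 10 in the combined one. In these comparisons 10.7%, 26.1% and 26.1% of all miRNAs were called lower. Of those numbered below 3000, 21.8%, 39.1% and 44.1% were, so 4 of 9 lay near the share in the GW4869 comparison. The part of this wider shift in the family's values was not tested.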

How the data were processed

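Ultracentrifugation gave the exosome pellet and TRIzol its RNA, which was labelled with Cy3, per the labels' protocols. The kits named there, for cRNA amplification and cDNA synthesis, are unusual for a miRNA array, so the labelling is uncertain. The deposited spot files hold background-subtracted intensity with no scaling between arrays, per the file headers, and come from Agilent Feature Extraction 10.7.1.1, per the submitters' processing notes. All 3 arrays share 1 slide and 1 scan time. The deposited value table was read as log2 values, since over its values above the lowest it correlated at 0.990, 0.999 and 0.987 (Pearson, H+G-Exo, H-Exo, N-Exo) with log2 signal totals, against 0.436, 0.512 and 0.524 unlogged. Its column medians are -3.30, -3.00 and -3.32. The H+G-Exo median is the lowest value of its column, at which miR-322-3p also stands, so it does not describe a typical signal. How the table was normalized is not stated by the labels or headers, and it served only as an alternative.

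Each array had 56430 miRNA spots for 4415 probes, and 2164 control spots were left out. Outlier spots were dropped (1466, 1369 and 1568) and 0 spots were saturated. Spots of a probe were averaged, divided by the array's 75th percentile, raised to a floor of 0.0653 (the lowest detected signal of the H-Exo array, the highest such limit of the 3) and put on the log2 scale. Each miRNA was represented by its brightest probe. The median spot coefficient of variation was 13.4%, 14.0% and 13.5%, and the number of arrays limits the precision. A fold against an undetected signal is a lower bound under the stated scaling only. The named miRNAs were all 8 members, the other products, neighbours and seed relatives listed for them, and the 5 nearest in pattern. The members and lists were chosen with earlier results of these data known. Probes and mature sequences were matched by name to RefSeq (GRCm38.p6). Python 3.11.15, numpy 2.4.6, pandas 2.3.3 and, for normexp background, limma 3.58.1 were used, and the call rule was tested on simulated data. Besides the planted changes, the simulated arrays differed only in spot noise and a common factor. That test thus does not bear on GC-linked or other shifts between the arrays. The alternatives numbered 22, of which 17 were planned and 5 were chosen after seeing the data.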

Additional observations from a re-analysis of the deposited data

How the results depend on the processing

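No paired analysis was possible because each group has 1 array. In the hypoxia comparison (H-Exo against N-Exo), miR-15a-5p, miR-15b-5p, miR-16-5p and miR-322-5p were below 0 under the main setting and all 22 alternatives, and miR-322-5p kept a difference of -3.16 to -1.47. The members called lower there numbered 3 (of 4 measured) when a scaled signal of at least 0.25 was required on both arrays, against 6 of 7, since fewer members then remained. Over the other alternatives they numbered 4 to 7. Of all miRNAs, 12.9% were called lower with that signal required and 10.7% in the main setting. The other alternatives gave 7.20% to 23.4%. In the GW4869 comparison (H+G-Exo against H-Exo) 4 of 6 members were called lower in the main setting, and 26.1% of all miRNAs. The members called numbered 2 with median scaling (15.5% of all miRNAs) and relative to the median miRNA (13.8%). Only 1 was called with labelling spike-in scaling (6.35%) and relative to the median of miRNAs numbered below 3000 (4.06%). It was 0 with hybridization spike-in scaling (2.82%), with no scaling (1.23%) and relative to miRNAs of like GC (9.01%). In the combined comparison (H+G-Exo against N-Exo) 4 to 7 members were called lower under every alternative, and 14.7% to 33.0% of all miRNAs. With the software's listed total per miRNA, 2 of 8 members were called higher in the hypoxia comparison, and 36 of all 701 miRNAs. For the GW4869 comparison these counts were 1 of 7 and 84 of 671, and for the combined one 1 of 7 and 167 of 726. That setting reversed miR-195a-5p (1.38), miR-497a-5p (3.95) and miR-503-5p (0.10) in the hypoxia comparison, and miR-195a-5p (0.37) in the combined one. The sum of the totals of each member's own probes reversed none of them. The median of all miRNAs shifted with the scaling, between -0.50 and 0.34 in the hypoxia comparison and between -0.42 and 0.57 in the GW4869 comparison. All miRNAs called lower numbered 62 in the main setting and 40 to 136 under the alternatives in the hypoxia comparison, 148 and 7 to 232 in the GW4869 comparison, and 158 and 84 to 200 in the combined one. Those called higher numbered 25 and 1 to 137 in the hypoxia comparison, 35 and 17 to 185 in the GW4869 comparison, and 111 and 58 to 217 in the combined one. miR-497a-5p and miR-322-3p were limited by signal over background in H+G-Exo, as was miR-195a-5p.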

Other observations

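The software's listed total per miRNA did not always equal the sum of the totals of that miRNA's own probes. For miR-497a-5p it was 4628 in H+G-Exo and 502.8 in H-Exo, where its own probes summed to 3.84 and 6.80, while in N-Exo both were 49.2. For miR-195a-5p it was 81.5 and 102.7 against sums of 7.90 and 8.97, and for miR-503-5p 125.8 and 117.4 against 16.2 and 18.5, in H+G-Exo and H-Exo. For miR-15a-5p, miR-15b-5p, miR-16-5p and miR-322-5p the listed total and the sum were equal to within 0.002 on every array. The authors' deposited table of log2 values lists miR-497a-5p at 0.14, 3.11 and 5.37 and miR-322-5p at 5.80, 6.98 and 9.23 in H+G-Exo, H-Exo and N-Exo, both lowest in H+G-Exo and highest in N-Exo.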
